A study of Arabidopsis thaliana with 6 samples.

Results

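Heat shock transcription factors (HSFs) are the proteins that switch on chaperone genes when cells are stressed by heat or oxidation. They bind short repeats of nGAAn, the heat shock elements, upstream of those genes. In plants the family is large: class A factors carry activation motifs, class B factors lack them and several act as repressors, and the HSFA1 proteins are the master activators that turn on HSFA2, the strongly inducible factor that prolongs the response. At rest, HSP90 and HSP70 chaperones hold the HSFA1 proteins inactive.

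The 10 genes described here are HSFA1A, HSFA1B, HSFA2, HSFA3, HSFA4A, HSFA6B, HSFA7A, HSFB1, HSFB2A and HSFB2B, 7 of class A and 3 of class B, of 32947 genes in the deposited tables. They were picked by name out of a family of 21 while the levels in these 6 libraries were already known. Which values decided the choice is not recorded. Every difference between a mutant and wild type in these 10 genes is therefore given as a description: no p is printed for any of them, and counts of them past a threshold support nothing.

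Leaf mRNA from Arabidopsis thaliana, ecotype Columbia-0, was sequenced at 3 weeks of age from plants in constant light, with 2 wild-type (WT) libraries and 1 library for each of 4 mutants. The nrpe1 library carries nrpe1-11, an allele of the gene for the largest RNA polymerase V subunit, and the idn2 library carries idn2-1, in an RNA-binding protein of the same pathway, RNA-directed DNA methylation. The double mutant carries idnl1-1 and idnl2-1, in a pair of IDN2 relatives, and the triple mutant carries both of those alleles with idn2-1. The labels do not say whether the WT libraries came from separate plants, so the spread between them may be technical, and no mutant value has a replicate.

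Depth was 2737943 to 3078153 reads in WT replicate 1, nrpe1, idn2 and the triple mutant. The double mutant (5819494) and WT replicate 2 (5975802) were deeper. Each mutant is therefore also set beside the WT library of its own depth. IDNL1 had 1 read in the triple mutant and 6 in the double, against 50 and 144 in the WT library of similar depth, which is the low level those labels call for. IDNL2 was less clear, with 5 reads against 14 in the triple mutant, a read ratio of 0.350 (exact 95% binomial interval 0.0987 to 1.03). In the double it had 11 against 46, a ratio of 0.246 (0.115 to 0.481). Neither gene tells the triple mutant from the double. NRPE1 was higher in nrpe1 than in WT, with 138 reads and a read ratio of 1.53 (exact 95% binomial interval 1.24 to 1.89), or 2.32 against WT replicate 1. IDN2 gave 118 reads in idn2, a ratio of 0.713 (0.578 to 0.873), and 136 in the triple mutant, a ratio of 0.848 (0.697 to 1.03). Reads over the span of a mutated gene do not check these nrpe1 and idn2 labels. The leaf genes RBCS1A, LHCB1.3 and RCA summed to 853 to 900 RPKM (reads per kilobase of gene span, scaled to the library's total) in the 4 shallow libraries and to 485 and 496 in WT replicate 2 and the double mutant. The chaperone gene HSC70-1 split the same way, at 304 to 344 RPKM against 200 and 203. The WT pair thus stands apart by depth in abundant genes, and values against the WT mean pool both; the part of this split in the results was not tested. The seed storage gene CRU3 had 0 reads in every library. The flower genes AP1, AG, PI and SEP3 summed to 10.9 RPKM in nrpe1 against 1.92 to 4.8 in the other libraries, and PYK10, abundant in roots, was at 14.5 RPKM in nrpe1 against 36.7 to 46.0 elsewhere; their part in the values below was not tested.

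By mean level in WT leaves, the 3 class B genes, HSFA4A and HSFA1B made up the upper part of the order. HSFB2B averaged 23.0 ± 2.04 RPKM (SD, n = 2), HSFB1 19.6 ± 3.96, HSFB2A 19.0 ± 4.27, HSFA4A 17.3 ± 3.53 and HSFA1B 16.3 ± 0.621. The WT ranges of neighbours in this run overlap, so the order of neighbours among these 5 genes is not resolved. Both WT values of HSFB2B (21.5 and 24.4 RPKM) were above both of HSFA4A (14.8 and 19.8), also per exon length. Per exon length HSFA1B ranked 3, above HSFB2A. HSFA2 (13.3 ± 1.59), HSFA1A (8.69 ± 1.42), HSFA3 (5.72 ± 0.521) and HSFA7A (2.79 ± 0.857) followed without overlap. The class B share of the summed RPKM of the 10 genes was 48.0% and 49.8% in WT and 45.7% to 53.0% in the mutants.

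Of the 10 genes, 9 reached 1 RPKM in at least 1 library and entered the fit over 22362 genes. The remaining gene, HSFA6B (AT3G22830, chromosome 3), known for its part in abscisic acid responses, had 0 reads in 4 libraries; the double mutant gave 2 and WT replicate 2 gave 1. A count of 0 allows up to 0.491 RPKM in WT replicate 1 and 0.437 in nrpe1. The deposited values of those 4 libraries, 0.144 to 0.162 RPKM, rest on the 1 read assumed to be added to each gene. No difference was detectable at this depth.

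**Figure D1:**
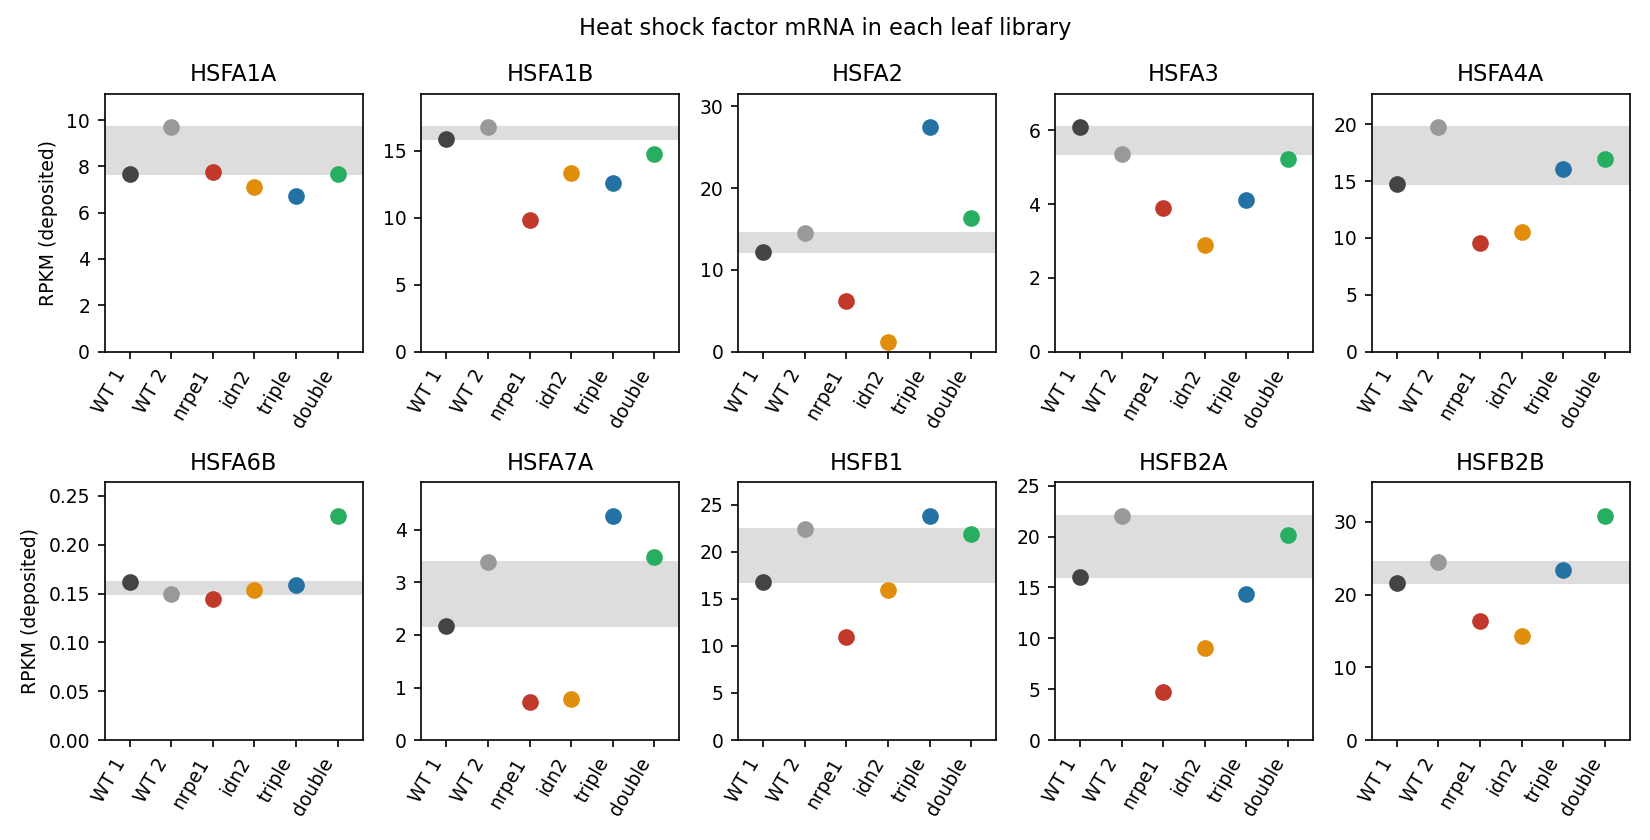
Deposited RPKM of the 10 heat shock factor genes in each library, on linear axes from 0 that differ between panels; points are single libraries and the grey band spans the WT pair. HSFA2 ran from 1.20 RPKM in idn2 to 27.5 in the triple mutant, and HSFB2A was lowest, at 4.76, in nrpe1.

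HSFA2 varied most of the 10, with a range of 3.69 on the log2(RPKM + 1) scale over the 6 libraries, against 0.47 for HSFA1A, the least variable of the 9 fitted genes. HSFA2 (AT2G26150, chromosome 2, 11142760 to 11144474 in TAIR8) was at 12.2 and 14.5 RPKM in WT, 6.19 in nrpe1, 1.20 in idn2, 27.5 in the triple mutant and 16.3 in the double. The idn2 and nrpe1 libraries lay below both WT libraries and the triple mutant above both, with the double just above. In reads, idn2 had 5 against 205 in both WT libraries, a ratio of 0.0737 to WT after scaling to depth, with an exact 95% binomial interval of 0.0237 to 0.175 that covers counting error only. The triple mutant, which carries idn2-1 as well, had 132 reads, a ratio of 2.01 (1.60 to 2.51). Against WT replicate 1, of similar depth, the ratios were 0.0833 in idn2, 0.499 in nrpe1 and 2.27 in the triple mutant.

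The place of HSFA2 among the 10 genes moved with its level. Its rank by RPKM over gene span was 6 in WT, 8 in idn2 and 1 in the triple mutant. The last rank depends on the length used, since HSFA2 and HSFB1 both had 132 reads in the triple mutant. Per exon length HSFB1 was higher there, at 26.4 RPKM against 25.1 for HSFA2. Its share of the summed RPKM of the 10 genes was 10.8% and 10.4% in WT, 1.59% in idn2, 8.82% in nrpe1 and 20.6% in the triple mutant.

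HSFA7A, another heat-inducible activator, was low in the same pair of libraries as HSFA2. HSFA7A (AT3G51910, chromosome 3, 19276272 to 19277597) was at 2.18 and 3.39 RPKM in WT, 0.728 in nrpe1, 0.776 in idn2, 4.27 in the triple mutant and 3.48 in the double. These levels rest on 2 reads each in nrpe1 and idn2, with ratios to WT of 0.172 (0.0199 to 0.671) and 0.183 (0.0213 to 0.716). Against the 7 reads of WT replicate 1 alone the intervals reached 1.33 and 1.42, so at the depth of a single shallow library the difference was not detectable.

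Of the master activators, HSFA1A stayed nearest to WT of the 9 fitted genes. HSFA1A (AT4G17750, chromosome 4, 9869831 to 9871616) was at 7.68 and 9.70 RPKM in WT and 6.74 to 7.74 in the mutants, all within 0.32 of the WT mean on the log2 scale. HSFA1B (AT5G16820, chromosome 5, 5530276 to 5532795) was at 15.9 and 16.8 RPKM in WT, 9.83 in nrpe1, 13.3 in idn2, 12.6 in the triple mutant and 14.8 in the double. All 4 mutants were below both WT libraries, and nrpe1 was lowest, with a read ratio of 0.593 (0.457 to 0.761).

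HSFA3 and HSFA4A were lower in both nrpe1 and idn2 than in either WT library. HSFA3 (AT5G03720, chromosome 5, 971785 to 973682), which is switched on by DREB2A in the later heat response, was at 6.09 and 5.35 RPKM in WT, 3.90 in nrpe1, 2.89 in idn2, 4.10 in the triple mutant and 5.22 in the double. Its read ratio in idn2 was 0.498 (0.268 to 0.865), on 15 reads. HSFA4A (AT4G18880, chromosome 4, 10347593 to 10349573), linked to oxidative stress signalling, was at 14.8 and 19.8 RPKM in WT, 9.58 in nrpe1, 10.6 in idn2, 16.1 in the triple mutant and 16.9 in the double. The last pair lay between the WT libraries.

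The repressor-class genes were lowest in nrpe1 or idn2. HSFB2A (AT5G62020, chromosome 5, 24933315 to 24934869) was at 16.0 and 22.1 RPKM in WT, 4.76 in nrpe1, 9.04 in idn2, 14.3 in the triple mutant and 20.1 in the double. In nrpe1 this was 22 reads against 273, a ratio of 0.228 (0.141 to 0.353), and 0.288 against WT replicate 1. HSFB2B (AT4G11660, chromosome 4, 7042624 to 7044702) was at 21.5 and 24.4 RPKM in WT, 16.4 in nrpe1, 14.3 in idn2, 23.3 in the triple mutant and 30.8 in the double, its highest level. The double mutant's read ratio was 1.31 (1.14 to 1.51), and 1.26 against WT replicate 2, of similar depth.

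HSFB1 (AT4G36990, chromosome 4, 17440171 to 17442145) was at 16.8 and 22.4 RPKM in WT, 10.9 in nrpe1, 16.0 in idn2, 23.8 in the triple mutant and 21.9 in the double. The nrpe1 library was lowest, with a read ratio of 0.525 (0.397 to 0.684). The idn2 library was also below both WT libraries and the triple mutant above both, and the double lay between them. The deposited span of HSFB1 is also listed in full as AT4G36988, so position does not tell reads of these entries apart. The HSFB2B span overlaps AT4G11670, and only reads in their shared part cannot be assigned to either gene.

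**Figure D2:**
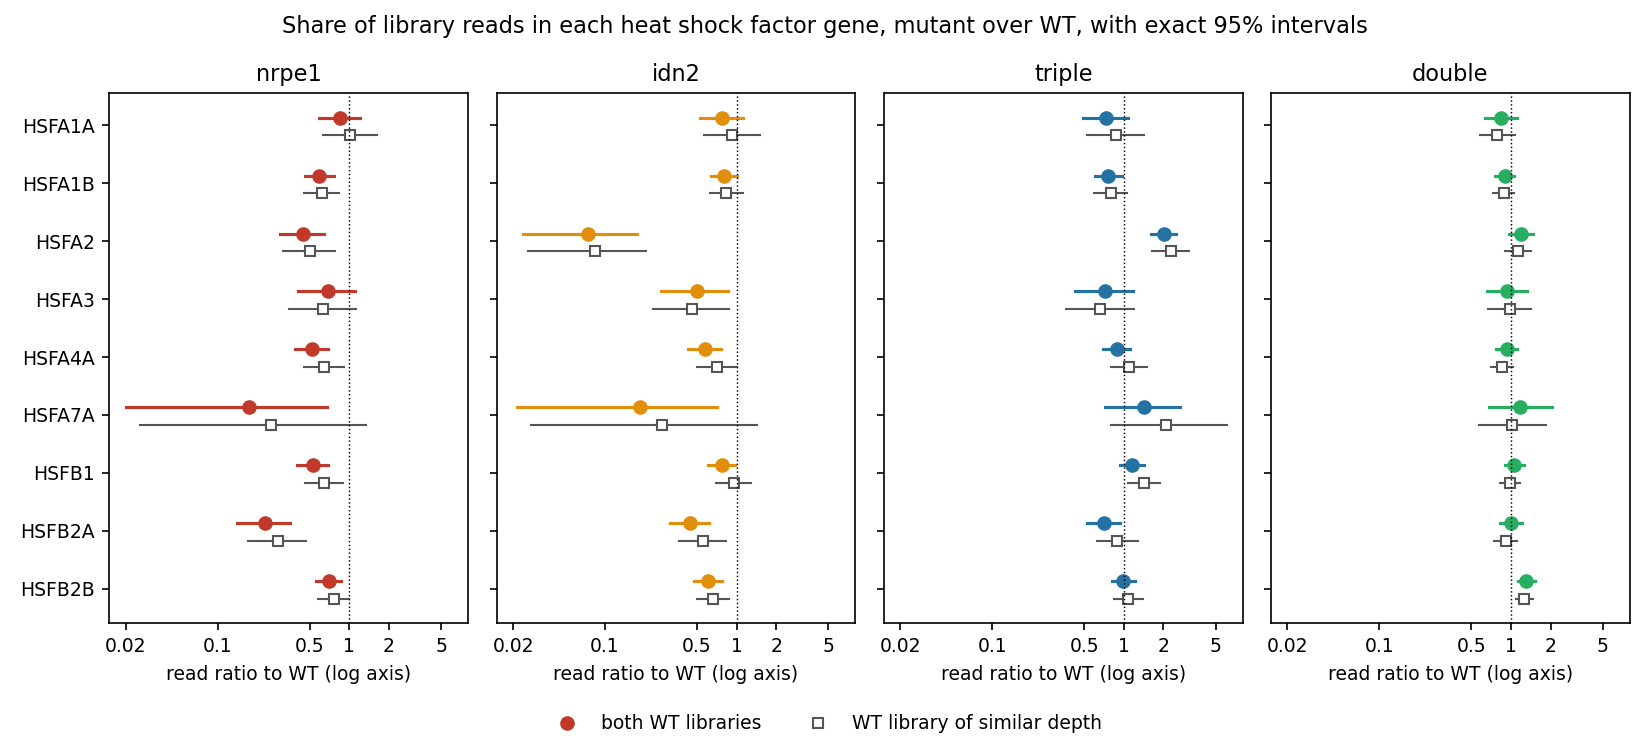
Reads per library read in each mutant relative to WT for the 9 fitted heat shock factor genes, on a log axis; filled circles use both WT libraries, open squares the WT library of similar depth, and lines are exact 95% binomial intervals for counting error. In idn2 the ratios ran from 0.0737 for HSFA2 to 0.807 for HSFA1B, and in the double mutant from 0.845 to 1.31.

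In nrpe1, 8 of the 9 fitted members lay below both WT libraries, as did 34.2% of all genes tested, and 0 lay above both (28.8% did); HSFA1A lay between them. The members' median log2 difference was -0.77, against 0.02 over all tested genes. In idn2, 9 of 9 lay below both WT libraries, as did 35.7% of all tested genes (21.6% lay above), with a median of -0.65 against -0.02. Since the members were picked with these contrasts known, nothing further is read from the counts. In bulk leaf RNA, fewer cells with a transcript and less of it per cell cannot be told apart.

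In the triple mutant 4 members lay below both WT libraries (39.2% of all tested genes did) and 3 above (19.0% did), with a median of -0.08 against -0.05. In the double mutant 3 lay below (20.0%) and 3 above (36.7%), with a median of 0.09 against 0.04. Against the WT library of similar depth alone, 8, 9, 4 and 6 of the 9 members were lower in nrpe1, idn2, the triple and the double mutant, beside 47.9%, 51.6%, 55.8% and 45.0% of all tested genes. WT replicate 2 was itself above replicate 1 in 8 of the 9 members, by up to 0.47 on the log2 scale.

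Applying a size rule of at least 2-fold beyond each WT library, HSFB2A in nrpe1 (2.13% of all tested genes were below by this rule, 0.599% above) and HSFA2 in idn2 (1.49% and 0.219%) were the members that met it. No member met it in the triple mutant (0.595% of all genes below, 0.116% above) or the double (0.335% and 0.201%). Without WT replicate 1, 3 members met it in nrpe1 and 3 in idn2, HSFA2, HSFA7A and HSFB2A in each, beside 3.77% and 2.92% of all tested genes below by that looser rule. Without WT replicate 2, 1 member, HSFA2, met it in the triple mutant, where 0.586% of all tested genes were above. The limma fit over all genes rests on the same values, so its calls on members are no second line of evidence. At a Benjamini-Hochberg adjusted p under 0.05 they held 1 member in nrpe1 (3.26% of tested genes were called, 2.59% lower and 0.666% higher) and 1 in idn2 (1.66%, with 1.41% lower and 0.246% higher). They held 0 members in the triple mutant (0.3% called, 0.228% lower and 0.0715% higher; 1 member at an unadjusted p under 0.05) and 0 in the double (0.344%, 0.157% lower and 0.188% higher; 0 members), and voom, the read-based form of limma, also called 0 in both.

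The 11 other HSF genes are those that the choice of members left out, with the same levels known, so they are not independent of it; limma gives the calls among them. Of these, 7 reached 1 RPKM, and 1 fell in nrpe1: HSFC1, the sole class C factor. HSFC1 (AT3G24520, chromosome 3, 8941073 to 8942881) was at 19.6 and 26.0 RPKM in WT, 9.96 in nrpe1, 19.9 in idn2, 28.6 in the triple mutant and 23.4 in the double. It fell by 1.11 on the log2 scale in nrpe1 (SE 0.24, limma adjusted p = 0.000365), and nrpe1 was the library outside the WT pair on the low side. The span of HSFC1 contains that of AT3G24518, a noncoding RNA annotated on the opposite strand, so this fall cannot be assigned to either strand.

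HSFB4, known for a role in root stem cell layers, was the only other HSF above both WT libraries in all 4 mutants. HSFB4 (AT1G46264) had 9.54 and 15.9 RPKM in WT, 17.7 in nrpe1, 18.8 in idn2, 16.2 in the triple mutant and 20.4 in the double. The WT pair differed by 0.68 on the log2 scale, and no mutant passed limma (lowest adjusted p = 0.719, in nrpe1). HSFA1D and HSFA1E, the remaining master activators, had 6.49 and 7.76, and 3.82 and 6.42 RPKM in WT, with differences of -0.26 to 0.19 and -0.23 to 0.38 across the mutants.

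HSFA4C, HSFA5 and HSFA8 had 10.7 to 16.0, 9.69 to 12.2 and 7.19 to 12.7 RPKM over the 6 libraries. The limma calls among the 7 fitted genes were 0 in idn2, the triple mutant and the double, with 1, 0 and 1 at an unadjusted p under 0.05, and voom called 0 in each. HSFA6A, HSFA7B, HSFA9 and HSFB3 had at most 2 reads in any library. HSFA9 belongs to seed development, and it had 0 reads in every library.

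The chaperones and cofactors that restrain or assist the HSFs were counted next, 11 of 12 with enough signal. In nrpe1 4 of the 11 lay above both WT libraries (28.8% of all tested genes did) and 3 below (34.2%), with a median difference of 0.08. In idn2 0 lay above (21.6%) and 7 below (35.7%), with a median of -0.23. By limma, 2.59% of all tested genes fell in nrpe1 and 1.41% in idn2. In nrpe1 2 fell, HSP90.1, the heat-inducible cytosolic HSP90, by 1.36 (SE 0.28, limma adjusted p = 7.80e-05) and MBF1C, a transcriptional coactivator of the heat response, by 0.76 (adjusted p = 0.0401; not passed in 5 of the alternatives). In idn2 2 fell, HSP90.1 by 1.77 (adjusted p = 3.96e-08) and ROF2, a peptidyl-prolyl isomerase that binds HSP90, by 1.44 (adjusted p = 0.0382). The constitutive HSP90.2, HSP90.3 and HSC70-1 and the HSF-binding protein gene HSBP did not pass in any mutant, with differences of -0.34 to 0.46. The triple and double mutants had 0 calls in this list, 0 at an unadjusted p under 0.05, and 0 by voom.

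Of 20 target genes of HSFs, 16 were fitted; 5 fell in nrpe1 and 3 in idn2, where 2.59% and 1.41% of all tested genes did. HSP70, the inducible cytosolic chaperone, fell by 1.73 (SE 0.22, limma adjusted p = 1.22e-12) in nrpe1 and by 1.86 (SE 0.22, adjusted p = 1.24e-14) in idn2, from 66.6 and 70.8 RPKM in WT to 20.1 and 18.1. HSP17.8, a small heat shock protein, fell by 1.32 and 2.01 (adjusted p = 0.00428 and 4.96e-07). HSP101, the disaggregase, fell by 1.02 and 1.03 (adjusted p = 0.0283 and 0.0459). GOLS1 and GOLS2, of raffinose sugar synthesis, fell in nrpe1 by 1.25 (adjusted p = 1.23e-06) and 0.77 (adjusted p = 0.0244). Not all targets were lower: in nrpe1 4 of the 16 lay above both WT libraries, as did 28.8% of all tested genes, and 8 lay below both (34.2%). The 4 above did not pass limma. They were the small heat shock protein genes HSP17.4 (0.90), HSP17.6A (0.67) and HSP17.6II (0.35) and the chaperone gene HSP70B (0.32). The median difference of the 16 was -0.21 in nrpe1 and -0.55 in idn2, against 0.02 and -0.02 over all tested genes. The spans of HSP101 and GOLS1 overlap AT1G74300 and AT2G47170.

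The remaining 4 targets were under the 1 RPKM minimum. HSP21, HSP22.0 and HSP23.6, all small heat shock proteins of organelles, had at most 1 read per library, and APX2, an ascorbate peroxidase, at most 2. The triple and double mutants had 0 calls among the 16 fitted targets by limma and voom, with 1 and 2 at an unadjusted p under 0.05. In the double mutant 10 of the 16 fitted targets lay below both WT libraries, as did 20.0% of all tested genes, and 0 lay above (36.7%). Their median difference there was -0.23, against 0.04 over all tested genes. In the triple mutant 8 lay below (39.2%) and 4 above (19.0%), with a median of -0.07 against -0.05. The limma calls take each gene's spread from a trend over all genes, because the WT pair gives only 1 residual degree of freedom. With the added read taken off before the fit, no gene of these lists passed in any mutant; this is taken up with the processing.

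**Figure D3:**
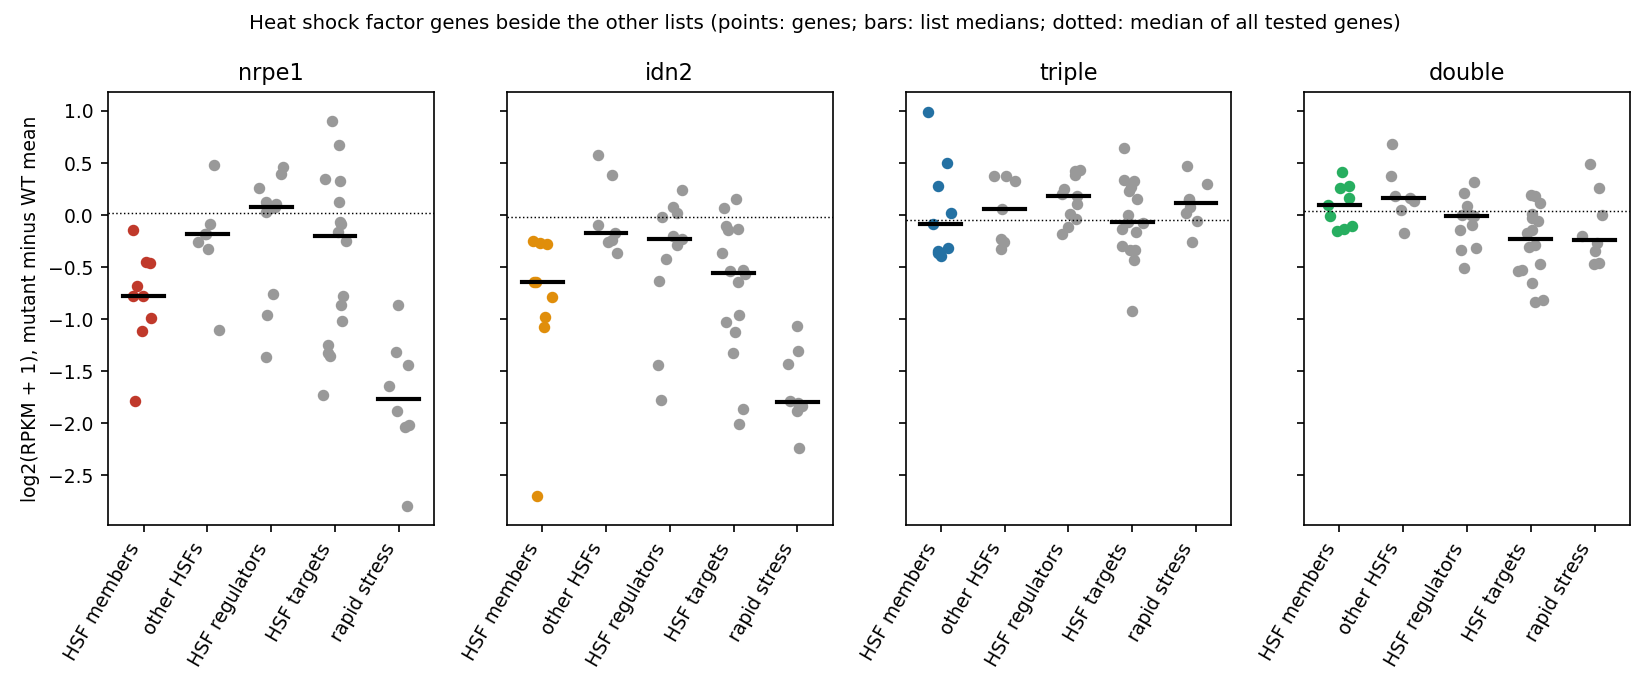
Difference in log2(RPKM + 1) between each mutant and the WT mean for the fitted genes of 5 lists; points are genes, bars list medians, and the dotted line is the median of all tested genes. The members' medians were -0.77, -0.65, -0.08 and 0.09 in nrpe1, idn2, the triple and the double mutant.

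The 8 touch and rapid stress genes, such as TCH4, ZAT10 and WRKY33, were lowest in nrpe1 and idn2. All 8 fell in nrpe1 by limma, with a median difference of -1.76, and 7 of 8 in idn2, with a median of -1.79. Of all tested genes, 2.59% in nrpe1 and 1.41% in idn2 fell by limma. Like the regulators and targets, this list was chosen with earlier results of these data known, so its counts support nothing. The list summed to 166 RPKM in nrpe1 and 186 in idn2, against 594 and 526 in WT, 620 in the triple mutant and 478 in the double. No member of that list passed in the triple or double mutant by limma or voom, with 0 and 1 at an unadjusted p under 0.05. Its part in the HSF values was not tested.

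HSFA2, as the member with the widest range, was compared in pattern with 19181 other genes by the Pearson correlation of log2(RPKM + 1) over the 6 libraries, which share their depth classes. The 5 most alike were 3xHMG-box2 (r = 0.99), AT1G71690 (0.99), SR45a (0.99), AT3G58470 (0.99) and AT1G68350 (0.98). SR45a, a splicing factor of the SR-like group, had 27.8 and 28.5 RPKM in WT, 25.2 in nrpe1, 16.1 in idn2, 32.9 in the triple mutant and 30.3 in the double. That is the order of HSFA2, on a narrower range. The correlation takes no account of the size of a change. Over the 6 libraries 3xHMG-box2 ran from 30.1 to 38.5 RPKM and AT3G58470 from 14.8 to 19.4, against 1.20 to 27.5 for HSFA2. 3xHMG-box2 shares part of its span with WRKY53, and AT1G71690 and AT1G68350 had at most 19 reads in any library. No p is given for a ranking of this many genes over 6 points. HSP17.8, at 0.95, ranked 37 and HSFA7A, at 0.89, ranked 215.

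**Figure D4:**
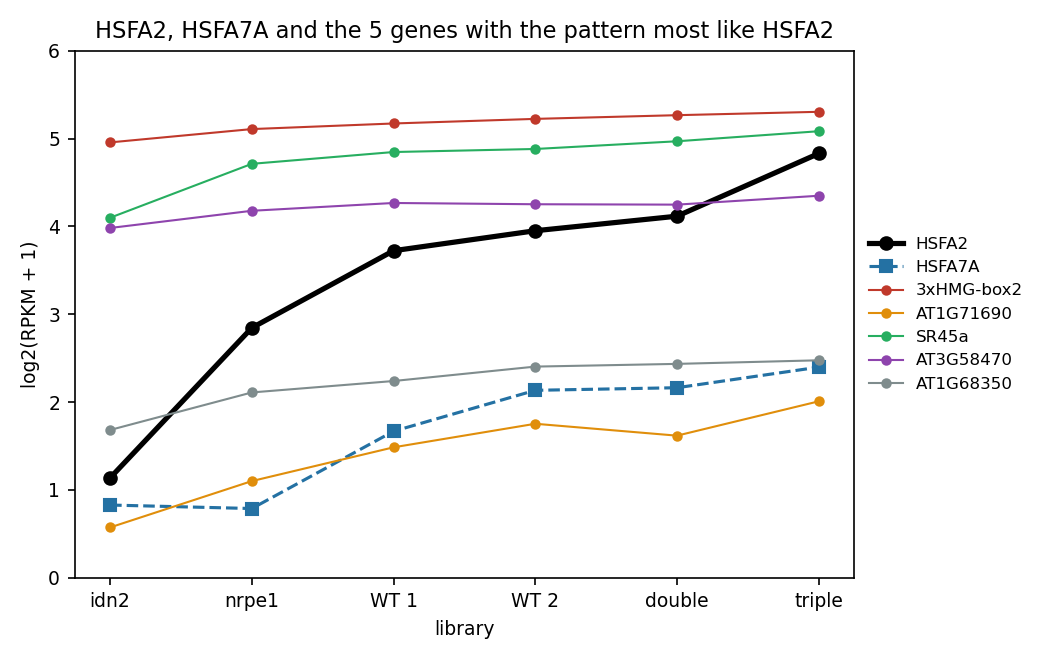
Log2(RPKM + 1) of HSFA2, HSFA7A and the 5 genes most correlated with HSFA2, with the libraries ordered by HSFA2; each point is 1 library. HSFA2 climbed from idn2 to the triple mutant over a range of 3.69, while 3xHMG-box2, SR45a and AT1G68350 kept its order of libraries; AT1G71690, AT3G58470 and HSFA7A each broke it at 1 or more steps.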

How the data were processed

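The authors deposited RPKM for 32947 genes per library. The submitters' processing notes list Bowtie without its version, the TAIR8 models are named with the deposited tables, and the TruSeq mRNA kit is named per the labels' protocols. How strand, duplicates and multi-mapped reads were treated was not stated in any source used here. All RPKM (100%) times gene span were whole multiples of each library's smallest such value (tolerance 1e-06), so the lowest multiple is 1 by definition. Per library, 10686 to 12035 genes stood at it. It was assumed to be 1 read added to each gene, which no source used here states, and was taken off to give reads. Every count of 0 reads and every read ratio rests on this assumption. Members peaked at 0.180 reads per base. limma 3.58.1 (R 4.3.3) was fitted to log2(deposited RPKM + 1) with 1 mean for each genotype and a trend of the spread on level, keeping genes that reached 1 RPKM in 1 or more libraries; single mutant libraries were taken to vary like the WT pair (prior degrees of freedom infinite). On this scale changes of low genes are understated. Fold and interval work used Python 3.11.15 with scipy 1.17.1. The fit was also run on simulated reads drawn with the same spread in every library. That run therefore cannot check whether the mutant libraries vary like the WT pair.

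Positions follow the deposited tables, with 1 added because starts there count from 0; they may be off by 1 base. TAIR10.1 gave symbols, exon lengths and the strand of AT3G24518 only. The members, lists and alternatives were chosen with earlier results of these data known. The text names all 21 HSF genes, list genes that passed limma (at most 4 per list and mutant by size, with GOLS2 and the list genes that did not pass added after their values were seen) and the 5 genes most like the member of widest range. No sequence is shown.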

Additional observations from a re-analysis of the deposited data

How the results depend on the processing

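No paired analysis was possible because each mutant has 1 library. Of 36 differences (9 members in 4 mutants), 3 changed sign without WT replicate 1, 3 without WT replicate 2, 2 with quantile normalization and 1 with median-of-ratios scaling; these were differences of HSFA1A in nrpe1, HSFA4A and HSFB2B in the triple mutant and HSFA4A, HSFB1 and HSFB2A in the double. Under voom, a pseudocount of 0.25 and the other scalings 31 to 33 of the 36 moved by less than 1 SD of the WT pair. Leaving out 1 WT library of 2 cannot move a difference by 1 SD, and a filter cannot move it at all, so those settings say nothing here. Genes called over nrpe1, idn2, the triple and the double mutant were 1127, 560, 169 and 174 with median-of-ratios scaling, against 728, 371, 67 and 77; quantile normalization gave 1150, 103 and 152 in nrpe1, the triple and the double mutant. Members called were 5, 2 and 1 in nrpe1, idn2 and the triple mutant with median-of-ratios scaling, and 4, 2 and 1 with quantile normalization, against 1, 1 and 0. The size rule took in 2 members in nrpe1 and 2 in idn2 with a pseudocount of 0.25 or voom, and 1 in the triple mutant with median-of-ratios scaling or quantile normalization. The share of all tested genes meeting the rule in these settings was not counted, so nothing is read from these member counts. Over the left-out WT replicates the rule took in 1 to 3 members in nrpe1, the same range of 1 to 3 in idn2, and 0 to 1 in the triple mutant.

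In nrpe1 the HSF regulators gave 1 call instead of 2 with a pseudocount of 0.25, no filter or voom, and the HSF targets 3 instead of 5 with voom, where HSP17.8 and GOLS2 were lost. With the added read taken off, 2044 tested genes stood at 0 in both WT libraries, the prior degrees of freedom fell to 1.46, and calls over nrpe1, idn2 and the triple mutant were 151, 76 and 41, with 0 members, other HSFs, regulators, targets or rapid stress genes. Limited to the 19792 genes with a read in both WT libraries, the same values gave 1 other HSF, 2 regulators, 5 targets and 8 rapid stress genes in nrpe1 again, with 177 calls in the triple mutant. Both of these settings were chosen after seeing the data. By exon length, 5 members took another rank in WT. Leaving out a WT library leaves limma no residual degrees of freedom, so its counts have no such value. Depth limits HSFA6B and HSFA7A most, with at most 2 and 26 reads.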
